A study of Mus with 15 samples.

Results

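Thymic FOXP3lo regulatory T cell (Treg) progenitors were compared with conventional CD4 single-positive (CD4SP) thymocytes by bulk RNA sequencing, 3 libraries against 3, out of 15 libraries in 5 sorted gates. Both groups came from the thymus of 6-week-old female mice of the strain labelled C57Bl/6 x Foxp3-GFP. After magnetic removal of CD8-bearing cells, live cells were sorted positive for CD4 and for the beta chain of the T cell receptor (TCR) that lacked CD8, BST2 and CD73. Within these, the conventional gate had neither CD25 nor FOXP3, and the FOXP3lo gate had low FOXP3 without CD25. All 6 libraries thus come from cells without surface CD25, the alpha chain of the interleukin-2 (IL-2) receptor, and differ in the gate on FOXP3. A second progenitor gate (CD25+ without FOXP3) and mature Tregs (CD25+ with FOXP3) were sequenced beside them, also 3 libraries each, and enter the same fit. The 3 Bst2+ libraries were left out. The numbers 40, 42 and 43 name the 3 biological replicates, all sorted in 1 experiment. The sources used here do not say whether a replicate is 1 mouse or a pool, so p-values measure the spread between these samples.

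FOXP3 is the transcription factor that defines Tregs, the CD4+ T cells that restrain responses to self. In the thymus it is induced in CD4SP thymocytes whose TCR binds self-antigen strongly, and IL-2 family cytokines acting through STAT5 help to fix its expression. FOXP3lo CD25-negative cells and CD25+ FOXP3-negative cells are both known as precursors that can become mature Tregs. Conventional CD4SP thymocytes leave the thymus as naive helper T cells after a maturation that raises the exit receptor S1PR1, MHC class I and interferon-stimulated genes.

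The conventional libraries held 23758157, 12842773 and 16658617 counts (replicates 40, 42 and 43) and the FOXP3lo libraries 18180510, 18497274 and 18650969. Levels are normalised read counts in CPM, which scales each library to the same total, adjusted with edgeR's TMM factors, and 3 values in a row are replicates 40, 42 and 43. Differences are log2 fold changes of FOXP3lo progenitors over conventional cells, with their standard error, from edgeR's quasi-likelihood test. Calls were made where the p adjusted by Benjamini and Hochberg over all 15648 genes tested was under 0.05. Between replicates the coefficient of biological variation came to 0.162 for conventional and 0.148 for FOXP3lo libraries. An unnamed gene, ENSMUSG00000097971, took 0.54% to 0.795% of the counts of conventional and 1.54% to 2.54% of those of FOXP3lo libraries. With it and the other genes among the 20 most abundant left out, 1960 genes were called higher and 1962 lower, against 2003 and 1922.

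Foxp3 RNA separated the gates as labelled, and RNA of other gate genes also differed. Foxp3 (ENSMUSG00000039521, chromosome X, 7573644 to 7595245, GRCm38) lay at 0.772, 1.57 and 0.523 CPM in conventional cells and 298, 273 and 302 CPM in FOXP3lo progenitors. The libraries of the gates did not overlap, and the log2 fold change was 8.34 ± 0.24, adjusted p = 7.61e-12. Flicr, a non-coding RNA that overlaps Foxp3 on the same strand, so that part of its reads could belong to Foxp3, lay at 0.162, 0.0749 and 0.174 CPM in conventional cells and 10.1, 12 and 10.3 CPM in FOXP3lo progenitors (6.15 ± 0.45, adjusted p = 2.19e-14). Il2ra, which encodes CD25, was measured at 10.4, 7.49 and 9.48 CPM in conventional cells and 105, 101 and 118 CPM in FOXP3lo progenitors (3.54 ± 0.09, adjusted p = 2e-29), so its RNA was higher in a gate that excluded the protein. Nt5e, which encodes CD73, absent from the surface in both gates, was also higher at 0.325, 1.87 and 1.28 CPM against 5.38, 4.83 and 10.1 (2.63 ± 0.40, adjusted p = 1.56e-06). Cd4 was slightly lower (856, 807 and 925 CPM against 716, 635 and 686, −0.34 ± 0.06, adjusted p = 2.82e-05), and so was Trbc1, a TCR beta constant gene (−0.29 ± 0.08, adjusted p = 0.00344). Trbc2 was not called (−0.13), but was called lower without conventional replicate 40 (−0.23). Cd8a fell from 9.18, 14 and 27.3 to 2.37, 1.85 and 3.19 CPM (−2.76 ± 0.48, adjusted p = 0.000839) and Cd8b1 from 21.3, 29.9 and 32.6 to 12, 13.1 and 13.5 (−1.11 ± 0.17, adjusted p = 1.28e-06). Limma-voom did not call Cd8a. In bulk samples, fewer cells that hold a transcript and less of it per cell cannot be told apart. Bst2 did not pass the test (−0.21). Cd4 and Trbc1 lost the call in the test against a fold of 1.5. Nt5e, Cd4 and Trbc1 lost it in the fit with all 15 libraries.

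Lists of genes of other cells were summed in each library. Markers of dendritic cells and macrophages summed to 21 to 28.2 CPM in conventional and 17.6 to 19.98 CPM in FOXP3lo libraries over 20 genes, and granulocyte and mast cell genes to at most 2.50 and 0.116 CPM over 10. The B cell list of 13 genes summed to 34.4 to 41.8 and 41.6 to 55.2 CPM, most of it Ighm, while Ms4a1 was at 0 in 4 of the 6 libraries. Of all genes tested, 12.8% were higher and 12.3% lower, the shares beside which the counts of called members in these lists stand. Gamma-delta T cell genes were lower in 3 of 6 tested members and higher in 0, and CD8 lineage genes were lower in 3 and higher in 4 of 9. Trgc1, a gamma-delta TCR constant gene, lost its lower call without conventional replicate 43 (−2.58) or FOXP3lo replicate 42 (−3.18) or 43 (−3.16). Without conventional replicate 42, 1 gamma-delta gene was higher, and without FOXP3lo replicate 43, 2 CD8 lineage genes were. Sums ran from 15.9 to 25.6 against 10.8 to 16.7 CPM for the first and 146 to 186 against 109 to 135 CPM for the second. Dissociation and immediate early genes summed to 640.1 to 672 and 842 to 907 CPM over 11 genes. Plasmacytoid dendritic cell genes summed to 23.6 to 31.8 and 37.5 to 38.7 CPM over 10, of which Irf8 (higher) and Lair1 (lower) were called, with Siglech at 0 in 5 of the 6 libraries. The 9 genes of the NKT cell list summed to 82.9 to 94.4 and 299.8 to 321 CPM, nearly all of it Il2rb and Slamf6, with 2 of 3 tested members higher and 0 lower, while Klrb1c, Klrb1a and Klra1 were at 0 in all 6 libraries. The 15 genes of recirculating and activated T cells summed to 72.2 to 77.1 and 91.7 to 103 CPM, most of it Cd44 and Ahnak, with 3 of 5 tested members higher, or 1 against a fold of 1.5, and 0 lower, while Klrg1, S100a4 and Pparg were at 0 in all 6. Ahnak lost its call without conventional replicate 40 (0.29) or 42 (0.25) or FOXP3lo replicate 40 (0.25). Erythroid genes summed to 5.48 to 6.98 and 7.1 to 8.03 CPM, and mitochondrially encoded genes to 7329 to 7722 and 7408 to 8063 CPM. Stromal genes summed to 204 to 232 and 298 to 335 CPM over 16, most of it Pecam1, an adhesion molecule that T cells also make.

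In total 3925 of the 15648 genes were called, 25.1%. Of these, 2003 were higher in FOXP3lo progenitors (12.8%) and 1922 lower (12.3%). More than 2-fold, 546 genes were higher (3.49%) and 604 lower (3.86%). The 3 libraries of each gate did not overlap in level for 6196 genes (39.6%), of which 3785 were also called (24.2%). Most called genes thus show no overlap, so for a called gene the lack of overlap is not a further result. The median log2 fold change over all genes was −0.01. In the test against a fold of 1.5, 462 genes were higher and 405 lower, and in the fit with all 15 libraries 784 and 616. These shares of all genes are the background against which each list stands. The lists and their members were chosen with earlier results of these data known. A count that departs from these shares is therefore a description and not independent support.

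**Figure D1:**
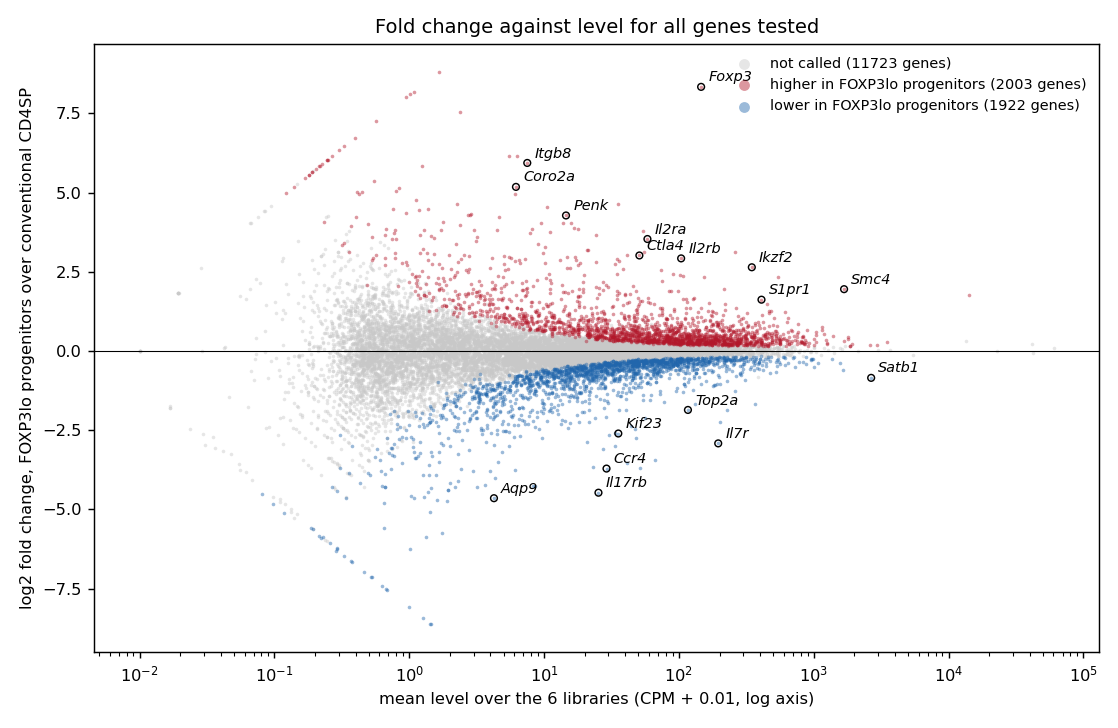
Log2 fold change of FOXP3lo progenitors over conventional CD4SP cells (vertical axis) against the mean level over the 6 libraries (horizontal axis, CPM + 0.01, log scale) for 15648 genes, with called genes in colour. Foxp3 stands at 8.34 and Il17rb at −4.47, while Smc4 and Satb1 are named genes of high level.

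The 12 highest fold changes, taken among called genes of at least 5 CPM without overlap and leaving out gate genes, included cell surface and secreted products that conventional cells hardly expressed. Itgb8, the integrin chain that activates latent TGF-beta, lay at 0.284, 0.0749 and 0.291 CPM in conventional cells and 13.1, 14.7 and 16.5 CPM in FOXP3lo progenitors (5.94 ± 0.36, adjusted p = 5.63e-17). Dscam, an adhesion molecule best known in neurons, lay at 0, 0.225 and 0.349 CPM against 14.4, 9.99 and 12.5 CPM, with no count in conventional replicate 40 (6.14 ± 0.49, adjusted p = 3.54e-12). Coro2a, an actin-binding coronin, followed at 0.406, 0.15 and 0.349 CPM against 13.5, 10.3 and 12.4 CPM (5.18 ± 0.25, adjusted p = 5.26e-20). The libraries of the 2 gates did not overlap in these 3 genes, but the choice required this, so it is not a further result. Hopx, a small homeodomain protein without DNA binding, was higher by 4.95 ± 0.32, and Hdac9, a class II histone deacetylase, by 4.32 ± 0.58. Secreted products in this group were the netrin Ntn4 (4.30 ± 0.42), the relaxin-family hormone Rln3 (4.23 ± 0.32) and Penk, the enkephalin precursor (2.07, 0.225 and 1.57 CPM against 36, 26.3 and 20.9 CPM, 4.28 ± 0.60). Cxcr5, the receptor for the B cell follicle chemokine CXCL13, rose by 4.30 ± 0.53, and Tmem121b, a membrane protein, by 4.56 ± 0.36. Flicr and Cd83 complete the 12. Penk was not called by limma-voom. Hdac9 lost the call in the fit with all 15 libraries.

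The 12 lowest fold changes were led by Aqp9, a channel for water and glycerol, at 9.22, 8.61 and 6.63 CPM in conventional cells and 0.347, 0.337 and 0.275 CPM in FOXP3lo progenitors (−4.64 ± 0.52, adjusted p = 2.28e-09). Il17rb, a chain of the receptor for IL-25, fell from 45.8, 49.5 and 49.96 to 2.02, 2.19 and 2.31 CPM (−4.47 ± 0.25, adjusted p = 5.39e-18). Ccr4, the receptor for the thymic medullary chemokines CCL17 and CCL22, fell from 43.5, 52.2 and 66 to 4.92, 2.81 and 4.62 CPM (−3.71 ± 0.21, adjusted p = 2.35e-17). The choice of these genes also required libraries without overlap, so their separation is not a further result. Asb2, a substrate-binding part of a ubiquitin ligase, fell by 4.27 ± 0.38, the transcriptional coregulator Mn1 by 4.25 ± 0.56 and Rap1gap2, which switches off the adhesion GTPase RAP1, by 4.23 ± 0.53. Sox13, a transcription factor of gamma-delta T cells, fell by 3.79 ± 0.80, and the sums of that cell type's list stand above. The others were Tdrd5, known from germ cells (−3.78 ± 0.46), the ectodysplasin receptor adaptor Edaradd (−3.74 ± 0.39), the neural adhesion molecule Chl1 (−3.68 ± 0.24), the adhesion G protein-coupled receptor Adgrg3 (−3.66 ± 0.23) and Chdh, which oxidises choline (−3.52 ± 0.17).

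**Figure D2:**
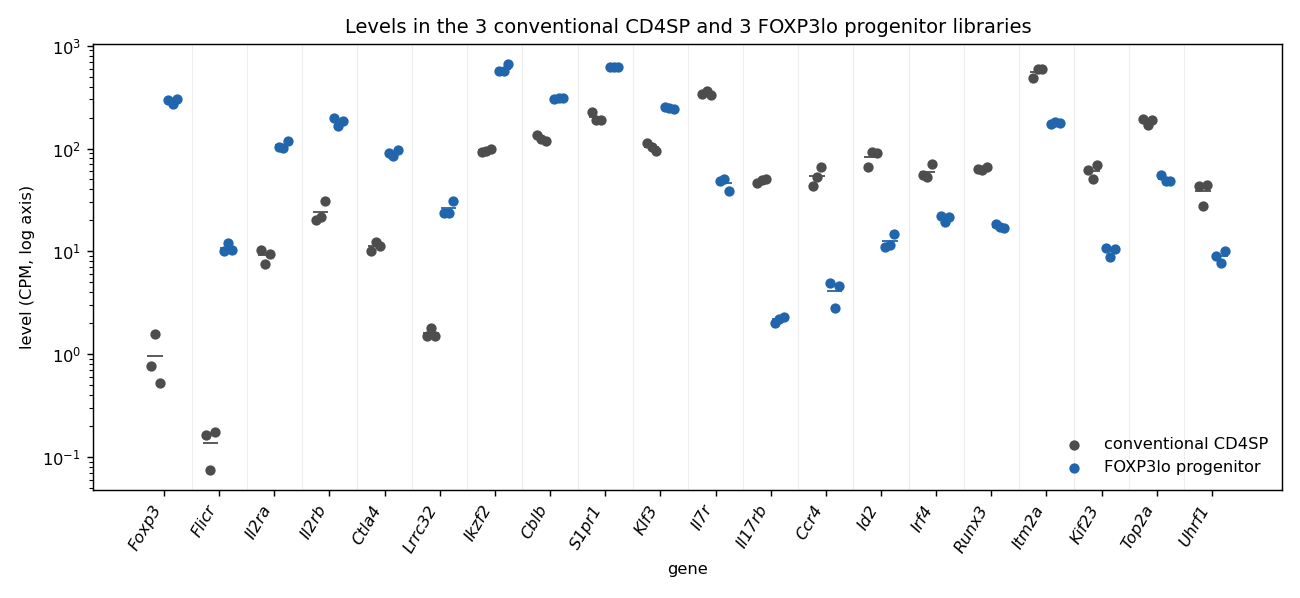
Levels (CPM, log axis) of 20 genes in each of the 3 conventional CD4SP (grey) and 3 FOXP3lo progenitor libraries (blue), with the mean as a bar. The 2 gates do not overlap for any of the 20 genes, which were picked among called genes. Of the 3925 called genes, 3785 do not overlap, so this is not a further result.

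Among Treg receptors and secreted factors, none was lower. Of 24 members tested, 16 were higher and 0 lower, with a median log2 fold change of 1.28, against 12.8% and 12.3% of all genes. These counts were 11 and 0 in the test against a fold of 1.5, and 12 and 0 in the fit with all 15 libraries. Ctla4, the inhibitory receptor that takes CD80 and CD86 from antigen-presenting cells, lay at 10.2, 12.4 and 11.2 CPM in conventional cells and 90.2, 84.9 and 96.4 CPM in FOXP3lo progenitors (3.02 ± 0.12, adjusted p = 6.4e-22). Lrrc32, which encodes GARP, the dock for latent TGF-beta on Tregs, lay at 1.5, 1.8 and 1.51 CPM against 23.6, 23.7 and 31.1 CPM (4.04 ± 0.15, adjusted p = 8.42e-24). The FOXP3lo values of both genes lay close together and well above the conventional ones. Dusp4, a phosphatase of MAP kinases, was higher by 3.79 ± 0.16, Swap70, a signalling adaptor of the actin skeleton, by 1.89 ± 0.08 and Nrp1, the semaphorin receptor neuropilin-1, by 1.41 ± 0.14. The costimulatory receptors OX40 (Tnfrsf4, 1.37 ± 0.15) and GITR (Tnfrsf18, 1.27 ± 0.10) rose as well. Gpr83, an orphan receptor of Tregs, rose less (0.50 ± 0.10), as did Furin, the protease that matures TGF-beta (0.52 ± 0.10). Icos (−0.11), Capg (−0.07) and Gbp4 (−0.11) were not called. Il10 was under the filter on low counts. Against mature Tregs, 18 of the 24 members were lower in FOXP3lo progenitors and 1 higher, where 9.37% and 9.29% of all genes were. The exception was Gbp4 (0.72 ± 0.07). Gpr83 and Furin lost the call in the test against a fold of 1.5. Furin lost it in the fit with all 15 libraries.

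Transcription factors of Tregs and their precursors split. Of 26 members tested, 10 were higher and 6 lower, with a median log2 fold change of 0.07. These counts were 6 and 2 in the test against a fold of 1.5, and 7 and 6 in the fit with all 15 libraries. The Ikaros family members Helios and Eos rose most: Ikzf2 went from 93.5, 94.9 and 98.8 to 566, 569.7 and 660.1 CPM (2.64 ± 0.07, adjusted p = 3.09e-28) and Ikzf4 from 31.2, 36.1 and 29.4 to 170.0, 159.9 and 185 (2.42 ± 0.09, adjusted p = 2.37e-23). A further member, Aiolos (Ikzf3), rose by 1.26 ± 0.08, while Ikaros itself (Ikzf1) was not called (−0.15) except lower by limma-voom, DESeq2 and without conventional replicate 42. Also higher were Bcl6, the repressor that drives follicular helper T cells (1.68 ± 0.12), Myb (1.55 ± 0.08), and the FOXO factors that hold T cells in quiescence, Foxo1 (0.92 ± 0.06) and Foxo3 (0.66 ± 0.07). Lower were Irf4, induced by TCR signalling (55.7, 52.6 and 70.7 CPM against 22.2, 19.1 and 21.7 CPM, −1.51 ± 0.11), the chromatin organiser Satb1 (3222, 3301 and 3753 CPM against 1930.5, 1929.7 and 1859 CPM, −0.85 ± 0.06), and factors of helper T cell identity: Zbtb7b, which encodes ThPOK (−0.49 ± 0.08), Lef1 (−0.49 ± 0.06) and Tcf7 (−0.37 ± 0.06). Runx1 completes the 6 lower members (−0.40 ± 0.07). Gata3 and Tox lay at 0.01 and 0.06 and were not called. Foxo3, Zbtb7b, Lef1, Tcf7 and Runx1 lost the call in the test against a fold of 1.5.

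Cytokine receptors moved apart from one another. Of 25 members tested, 12 were higher and 7 lower, with a median log2 fold change of 0.29. These counts were 6 and 4 in the test against a fold of 1.5, and 9 and 5 in the fit with all 15 libraries. Il2rb, the signalling beta chain that IL-2 and IL-15 share, lay at 19.98, 21.7 and 31 CPM in conventional cells and 199, 165 and 186 CPM in FOXP3lo progenitors (2.93 ± 0.12, adjusted p = 5.07e-14). Il7r, which gives naive T cells their IL-7 survival signal as the receptor's alpha chain, lay at 338, 366 and 332 CPM in conventional cells and 48.2, 50.3 and 39 CPM in FOXP3lo progenitors (−2.91 ± 0.25, adjusted p = 2.2e-05). The directions were opposite, and the gates did not overlap for either gene, as for 3785 of the 3925 called genes. The common gamma chain Il2rg, which both receptors use, was slightly lower (−0.37 ± 0.07). Per kilobase of gene model, the levels of Il2ra, Il2rb, Il2rg and Il7r averaged 1.59, 5.65, 91 and 74.1 CPM in conventional cells. In FOXP3lo progenitors the same levels per kilobase were 18.9, 42.8, 70.5 and 9.83 CPM. Thus the order of Il2rb and Il7r turned between the gates, and Il2rg was higher than Il2ra and Il2rb in both. Il6st, the gp130 chain of the IL-6 family, rose from 366, 348 and 366 to 838, 871 and 858 CPM (1.25 ± 0.06), Tgfbr1 by 1.37 ± 0.08 and the interferon-gamma receptor chain Ifngr1 by 1.05 ± 0.10. Receptor chains for IL-12 and IL-10 fell: Il12rb2 by 3.20 ± 0.43 and Il10ra by 1.46 ± 0.25, beside Il17rb. Il2rg lost the call in the test against a fold of 1.5. Il2rg lost it in the fit with all 15 libraries.

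Of the JAK kinases, STAT factors and their inhibitors, none was lower. Of 18 members tested, 12 were higher and 0 lower, with a median log2 fold change of 0.63. These counts were 5 and 0 in the test against a fold of 1.5, and 11 and 0 in the fit with all 15 libraries. Cish, a STAT5 target that damps cytokine signalling, lay at 15.9, 15.2 and 15.9 CPM in conventional cells and 51.8, 54.4 and 55.1 CPM in FOXP3lo progenitors (1.78 ± 0.09, adjusted p = 7.02e-19). Stat5a, itself one of the factors that IL-2 activates, lay at 84.6, 86.5 and 91.4 CPM against 162, 153 and 175 CPM (0.90 ± 0.07) and Stat5b rose by 0.45 ± 0.06. Stat3, the factor of the IL-6 family, rose by 0.87 ± 0.07, Stat4 by 1.12 ± 0.12, and the kinases Jak1 and Jak3 by 0.50 ± 0.06 and 0.61 ± 0.08. Socs1 and Socs3, inhibitors that STAT factors also induce, were not called (−0.26 and −0.13). Socs2, another STAT5 target, was at 0.0812, 0.15 and 0.349 CPM against 0.636, 0.449 and 0.22 CPM and not called (1.2). Stat5b, Jak1 and Jak3 lost the call in the test against a fold of 1.5. Stat5a lost it in the fit with all 15 libraries.

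Genes that answer to antigen were mixed but mostly higher. Of 24 members tested, 13 were higher and 2 lower, with a median log2 fold change of 0.38. These counts were 6 and 1 in the test against a fold of 1.5, and 7 and 2 in the fit with all 15 libraries. Tnfrsf9, the costimulatory receptor 4-1BB, lay at 27.7, 40.7 and 41.9 CPM in conventional cells and 136, 133 and 141 CPM in FOXP3lo progenitors (1.91 ± 0.13, adjusted p = 1.39e-09). Tagap, an antigen-induced GTPase regulator, rose by 1.84 ± 0.11, the surface protein Cd200 by 1.79 ± 0.11, the inhibitory receptor PD-1 (Pdcd1) by 1.4 ± 0.15 and Nr4a3, an orphan nuclear receptor, by 1.13 ± 0.07. Its relative Nr4a1, encoding NUR77, rose less (0.45 ± 0.09). Of the early growth response genes, Egr3 rose by 0.51 ± 0.13, and Egr1 and Egr2 were not called (−0.01 and 0.08). Irf4 and Cd69, the activation marker that holds cells in the thymus (−0.41 ± 0.09), were the 2 lower members. The sums of dissociation and immediate early genes given above also differed between the gates, and their part in these values was not tested. Some higher calls rested on single libraries. Nr4a2 lost its call without conventional replicate 40 or FOXP3lo replicate 40 or 42. Ccr7 did so without conventional replicate 40 or FOXP3lo replicate 40 or 43. Xcl1 lost its call without replicate 42 or 43 of either gate, while Lag3 gained one, as higher, without FOXP3lo replicate 42. Nr4a1, Egr3 and Cd69 lost the call in the test against a fold of 1.5. Nr4a1 and Egr3 lost it in the fit with all 15 libraries.

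Called genes of the TCR machinery differed by small amounts. The 24 members tested had a median log2 fold change of −0.03. Of them, 4 were higher and 4 lower, 16.7% each, near the 12.8% and 12.3% of all genes. These counts were 0 and 0 in the test against a fold of 1.5, and 1 and 2 in the fit with all 15 libraries. The called members lay between −0.47 (Cd247, the CD3 zeta chain) and 0.73 (Nfatc3, a calcium-regulated factor), and the test against a fold of 1.5 called 0 of the 24. Lck, Zap70 and Cd3e were not called (−0.13, −0.07 and −0.07), and Lat, the adaptor that spreads the signal, fell by 0.43 ± 0.07. Without conventional replicate 42 or 43, or FOXP3lo replicate 40 or 42, 2 members were lower instead of 4. Negative regulators went both ways. Of 27 members tested, 12 were higher and 9 lower, with a median log2 fold change of 0.33. These counts were 4 and 1 in the test against a fold of 1.5, and 10 and 4 in the fit with all 15 libraries. Higher were Cblb, a ubiquitin ligase (136, 124 and 118 CPM against 305, 312 and 312 CPM, 1.29 ± 0.07, adjusted p = 3.09e-18), Spry1, an inhibitor of RAS signalling (2.12 ± 0.24), the phosphatases Ubash3b (1.01 ± 0.12) and Ptpn22 (0.82 ± 0.08), and the coreceptors Cd5 (0.46 ± 0.07) and Cd6 (0.58 ± 0.06). Lower were the adaptor Sit1 (−0.95 ± 0.14) and the phosphatases Ptpn6, known as SHP-1 (−0.46 ± 0.07), and Ptpn7 (−0.59 ± 0.08). Cd247, Nfatc3, Lat, Cd5, Cd6, Ptpn6 and Ptpn7 lost the call in the test against a fold of 1.5.

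TNF receptors and the NF-kB pathway, which costimulation feeds, were higher across ligand-binding receptors, adaptors and transcription factors. Of 28 members tested, 22 were higher and 1 lower, with a median log2 fold change of 0.55. These counts were 9 and 0 in the test against a fold of 1.5, and 15 and 0 in the fit with all 15 libraries. Tnfrsf1b, which encodes TNFR2, lay at 57.1, 50.7 and 57.3 CPM in conventional cells and 186, 149 and 177 CPM in FOXP3lo progenitors (1.63 ± 0.09, adjusted p = 3.36e-18). Tnfrsf25 (death receptor 3) was higher by 1.17 ± 0.14, and with OX40, GITR and 4-1BB this makes 5 receptors of the family over 1 on the log2 scale. Of the adaptors, Traf1 rose by 1.03 ± 0.08 and the ubiquitin ligase Birc3 by 0.92 ± 0.07. Of the factors, Rel, the c-Rel subunit that binds Foxp3, lay at 123, 110.0 and 108 CPM against 234, 211 and 234 CPM (0.99 ± 0.07, adjusted p = 6.13e-15), Nfkb1 and Nfkb2 rose by 0.49 ± 0.06 and 0.72 ± 0.09, and Rela was not called (0.16). The inhibitors rose too: Bcl3, a nuclear partner of p50 and p52, by 1.32 ± 0.11 and Nfkbia by 0.55 ± 0.07. Tnfrsf1a, which encodes TNFR1, was the member that fell (57.9, 48.4 and 51.2 CPM against 40.8, 34.2 and 28.7 CPM, −0.61 ± 0.14). Nfkb1, Nfkb2, Nfkbia and Tnfrsf1a lost the call in the test against a fold of 1.5. Tnfrsf1a lost it in the fit with all 15 libraries.

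On a list of genes of exit, homing and adhesion, which holds receptors and other products, more members were higher than lower. Of 24 members tested, 15 were higher and 6 lower, with a median log2 fold change of 0.37. These counts were 5 and 2 in the test against a fold of 1.5, and 10 and 5 in the fit with all 15 libraries. S1pr1, whose product senses sphingosine-1-phosphate and guides thymic exit, lay at 226, 188 and 188 CPM in conventional cells and 618, 615 and 623 CPM in FOXP3lo progenitors (1.62 ± 0.07, adjusted p = 1.25e-20). The 3 FOXP3lo libraries were closer to each other than any was to a conventional library. Klf3 (1.26 ± 0.09) and Klf2, the factor that drives S1pr1 (0.55 ± 0.07), rose as well, with the integrin chains Itga4 (1.2 ± 0.07) and Itga6 (0.92 ± 0.08) and the chemokine receptor Cxcr4 (1.09 ± 0.22). Lower members were Ccr4 (above), Ccr8, another medullary and Treg-linked chemokine receptor (−1.33 ± 0.16), Gpr183, a receptor for oxysterols (−0.59 ± 0.12), Itgb1 (−0.58 ± 0.08), the filament protein Vim (−0.67 ± 0.06) and Cd69. Among the higher, Ccr7 lost its call without conventional replicate 40 (0.18) or FOXP3lo replicate 40 (0.20) or 43 (0.18). Emp3 lost its call without conventional replicate 40 (0.39) or FOXP3lo replicate 40 (0.40). Klf2, Cxcr4, Gpr183, Itgb1 and Vim lost the call in the test against a fold of 1.5. Gpr183 lost it in the fit with all 15 libraries.

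Late maturation genes, which rise as single-positive thymocytes near exit, were higher. Of 27 members tested, 20 were higher and 2 lower, with a median log2 fold change of 0.64. These counts were 11 and 0 in the test against a fold of 1.5, and 17 and 0 in the fit with all 15 libraries. Ms4a4c, a membrane protein of mature T cells, lay at 2.23, 3.07 and 1.69 CPM in conventional cells and 34.4, 32.9 and 32.1 CPM in FOXP3lo progenitors (3.85 ± 0.23, adjusted p = 7.28e-17). Its neighbours Ms4a4b and Ms4a6b rose by 1.13 ± 0.09 and 0.82 ± 0.08. Of the GTPases of lymphocyte survival, Gimap3, Gimap7, Gimap5 and Gimap1 rose by 1.03, 1.04, 1.00 and 0.96, Gimap4 was not called (0.14) but was by limma-voom, and Gimap9 was lower (−0.31). MHC class I genes rose, with H2-K1 at 893, 836 and 861 CPM against 1443, 1402 and 1524 CPM (0.75 ± 0.06, adjusted p = 1.07e-13), H2-Q7 at 1.13 and B2m at 0.66. H2-Q6 and H2-Q7, and Gimap3 and Gimap5, are close copies among which reads can be split. The second lower member was Ly6a (−1.21, 7.004 against 3.03 CPM on average), a call lost without any of the 6 libraries but conventional replicate 43. Gimap9, B2m and Ly6a lost the call in the test against a fold of 1.5. Gimap9 and Ly6a lost it in the fit with all 15 libraries.

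Genes of immature thymocytes were lower in more cases than higher. Of 21 members tested, 4 were higher and 10 lower, with a median log2 fold change of −0.44. These counts were 2 and 6 in the test against a fold of 1.5, and 2 and 7 in the fit with all 15 libraries. The median member, as log2(CPM + 0.5) minus its mean over the 12 libraries, lay at −0.25, 0.22 and 0.28 in conventional libraries. In FOXP3lo libraries it lay at −0.25, −0.36 and −0.44, so conventional replicate 40 was level with FOXP3lo replicate 40. Itm2a, which marks recent positive selection, fell from 483, 597 and 594 to 173, 179 and 177 CPM (−1.66 ± 0.08, adjusted p = 7.71e-20). Dntt, the terminal transferase of TCR gene assembly, fell from 20.9, 26.3 and 28.4 to 2.6, 6.51 and 4.73 (−2.44 ± 0.21, adjusted p = 2.45e-11), and Cd24a, lost on maturation, by 1.02 ± 0.13. Rag1, part of the recombinase, was at 0.894, 6.14 and 0.698 CPM against 2.31, 1.8 and 2.64 CPM and was not called (−0.05) except, as higher, without conventional replicate 42 (1.47). The FOXP3lo libraries lay below all conventional ones for Itm2a, Dntt and Cd24a, and the Rag1 values overlapped. Against the list, Ldlrad4, an inhibitor of TGF-beta signalling, rose by 1.55 ± 0.10 and St6galnac3, a sialyltransferase, by 1.83 ± 0.23.

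Interferon-stimulated genes were higher, each by a modest amount. Of 57 members tested, 39 were higher and 1 lower, with a median log2 fold change of 0.56. These counts were 12 and 1 in the test against a fold of 1.5, and 24 and 1 in the fit with all 15 libraries. Samhd1, a dNTP hydrolase that limits viral DNA synthesis, lay at 464, 399 and 439 CPM in conventional cells and 828, 800.0 and 839 CPM in FOXP3lo progenitors (0.92 ± 0.07, adjusted p = 1.02e-14). Slfn5, a Schlafen family member, rose by 1.21 ± 0.07, Ifit3 by 1.26 ± 0.16, Mx1 by 1.19 ± 0.25, and the nuclear DNA sensors Ifi206, Ifi209 and Ifi214 by 1.00, 0.95 and 1.13. The IFI200 family members are close copies among which reads can be split. The factors that carry the interferon signal, Stat2, Irf9 and Irf7, rose by 0.70, 0.51 and 0.49. Isg15 was not called (0.27). Oas2, an oligoadenylate synthetase, was the exception and lay at 72.1, 61.5 and 48.1 CPM against 28.2, 25.3 and 22.2 CPM (−1.26 ± 0.21, adjusted p = 5.38e-05), with the gates apart. Oas3, next in the same family, was not called (−0.08). Stat2, Irf9 and Irf7 lost the call in the test against a fold of 1.5. Irf9 and Irf7 lost it in the fit with all 15 libraries.

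**Figure D3:**
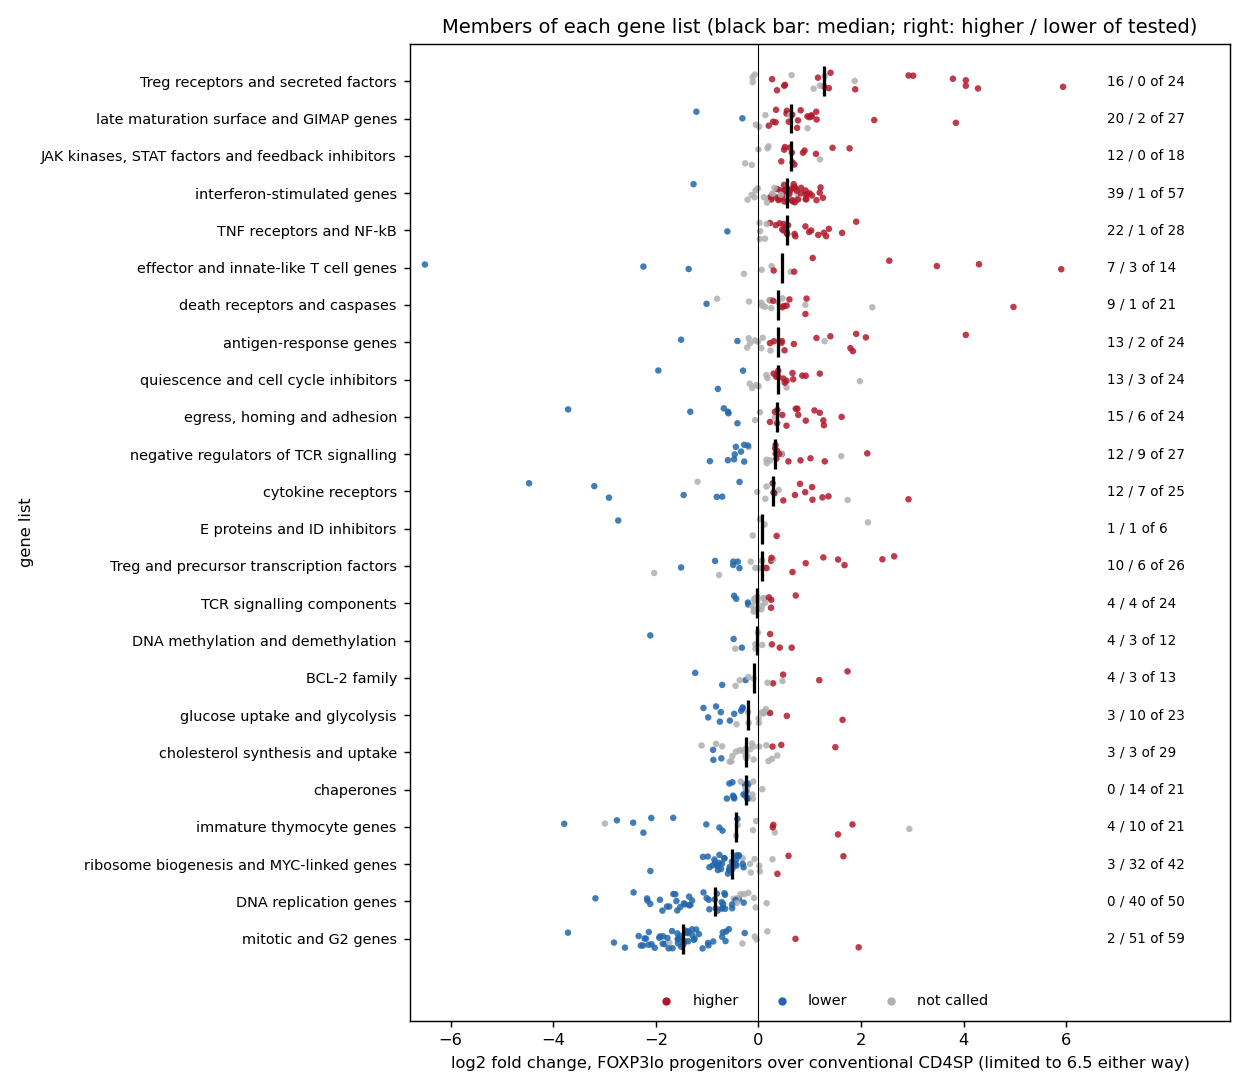
Log2 fold change of FOXP3lo progenitors over conventional CD4SP cells (horizontal axis) for each tested member of 24 gene lists (rows, ordered by median), coloured by call, with the counts called higher and lower at the right and the black bar at the median. Il21, with 0 counts over the FOXP3lo libraries, is drawn at the left limit of the axis. Mitotic genes have the lowest median (−1.46) and Treg receptors and secreted factors the highest (1.28).

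Cell division genes were lower throughout the cycle. Of 59 members tested, 2 were higher and 51 lower, with a median log2 fold change of −1.46. These counts were 1 and 34 in the test against a fold of 1.5, and 2 and 37 in the fit with all 15 libraries. Mki67, the proliferation antigen, lay at 212, 180.3 and 212 CPM in conventional cells and 64.3, 64.1 and 59.97 CPM in FOXP3lo progenitors (−1.68 ± 0.19, adjusted p = 0.000104). Kif23, the motor of the midbody, fell from 62.1, 51 and 69.7 to 10.9, 8.81 and 10.5 CPM (−2.60 ± 0.16, adjusted p = 6.46e-17), and Top2a, the topoisomerase that untangles chromosomes, from 192, 168 and 189 to 55, 48.5 and 47.9 (−1.86 ± 0.10, adjusted p = 1.47e-17). All 3 genes were lower in every FOXP3lo library than in any conventional one, and none was absent. Most called genes separate in this way, so it is not a further result. Kinetochore and spindle genes such as Kif11 (−2.08 ± 0.17), Nuf2 (−2.19 ± 0.32) and Spc25 (−2.33 ± 0.34) fell alike, and so did Ccna2, the cyclin of S and G2 phase (−1.83 ± 0.28). For the DNA replication list the counts were 0 higher and 40 lower of 50, with a median of −0.84. These counts were 0 and 20 in the test against a fold of 1.5, and 0 and 24 in the fit with all 15 libraries. Uhrf1, which keeps DNA methylation on new strands, fell from 43.6, 27.5 and 43.9 to 8.91, 7.69 and 10.2 CPM (−2.11 ± 0.15, adjusted p = 1.57e-14). The helicase subunits Mcm2, Mcm3 and Mcm5 fell by 0.97, 0.85 and 1.01, the nucleotide enzymes Rrm2 and Tyms by 2.16 and 1.78, and the S-phase factor E2f1 by 1.87.

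Of the mitotic list, 2 members rose. Cenpa, the centromeric histone, was higher by 0.72 ± 0.15. Smc4, a condensin subunit, lay at 714, 697 and 655 CPM in conventional cells and 2554, 2706 and 2745 CPM in FOXP3lo progenitors (1.95 ± 0.06, adjusted p = 1.62e-26), the opposite of its partners Smc2 (−0.71), Ncapg (−1.77), Ncaph (−0.88) and Ncapd2 (−0.63). Ift80, an intraflagellar transport gene singled out after its values were seen, lies next to Smc4 on chromosome 3 and lay at 188, 174 and 167 CPM against 841, 936 and 925 CPM (2.35 ± 0.07, adjusted p = 3.54e-27). In GRCm38, Ift80 covers 68892499 to 69004570 on the minus strand and Smc4 covers 69004738 to 69034623 on the plus strand, so the genes point away from each other with 167 bases between them. Counting used strand, so the genes do not share reads by overlap. A list of quiescence genes, cell cycle inhibitors and some drivers of the cycle (Ccnd2, Ccnd3, Cdk4 and Cdk6) was counted beside these. Of 24 members tested, 13 were higher and 3 lower, with a median log2 fold change of 0.37. These counts were 3 and 1 in the test against a fold of 1.5, and 8 and 2 in the fit with all 15 libraries. Rb1, the retinoblastoma protein, rose from 111, 122 and 109 to 244, 268 and 274 CPM (1.2 ± 0.08, adjusted p = 2.15e-15), Btg1 by 0.86 ± 0.06 and the inhibitor p27 (Cdkn1b) by 0.68 ± 0.07. Lower were the cyclin-dependent kinases Cdk4 (−0.79 ± 0.10) and Cdk6 (−0.30) and the inhibitor Cdkn2c (−1.95 ± 0.47). The Cdk6 call was lost without conventional replicate 40 or 43 or FOXP3lo replicate 42 or 43 (−0.27, −0.29, −0.28 and −0.20). Cenpa, Smc2, Ncaph, Ncapd2, Cdkn1b, Cdk4 and Cdk6 lost the call in the test against a fold of 1.5. Cdk6 lost it in the fit with all 15 libraries.

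Most genes on a list of ribosome biogenesis and MYC-linked genes were lower. Of 42 members tested, 3 were higher and 32 lower, with a median log2 fold change of −0.51. These counts were 1 and 6 in the test against a fold of 1.5, and 2 and 19 in the fit with all 15 libraries. Mybbp1a, a nucleolar protein, fell from 168, 156 and 172 to 102, 96.1 and 88 CPM (−0.80 ± 0.07, adjusted p = 1.72e-11) and Tsr1, a maturation factor of the small subunit, from 70.8, 64.6 and 65.9 to 33.8, 32.7 and 28.7 (−1.08 ± 0.10, adjusted p = 4.18e-11). Fbl, the methyltransferase fibrillarin, fell by 0.67 ± 0.09 and Polr1b, a subunit of RNA polymerase I, by 0.89 ± 0.14. The gates did not overlap for these 4 genes, as for most called genes. Ncl and Npm1, the abundant nucleolar proteins, were not called (0.03 and 0.02), and neither was Myc (−0.16). The 3 members that rose, Mxd1 (68.2, 55.9 and 60.1 CPM against 207, 177 and 199 CPM, 1.66 ± 0.08), Mxd4 (0.59 ± 0.07) and Mxi1 (0.37), are antagonists of MYC that share its partner MAX, while a further member of that family, Mxd3, fell (−2.11 ± 0.55). Mxi1 lost its call with RLE factors, the replicate block, DESeq2 and other settings, and without any library but FOXP3lo replicate 40. Fbl, Polr1b, Mxd4 and Mxi1 lost the call in the test against a fold of 1.5. Mxi1 and Mxd3 lost it in the fit with all 15 libraries.

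Metabolic lists had medians nearer to 0. Chaperones were lower in 14 of 21 and higher in 0, with a median of −0.25, and in 9 without FOXP3lo replicate 40 or 43. Against a fold of 1.5 the counts were 0 higher and 0 lower, and with all 15 libraries 0 and 4. The mitochondrial chaperones Hspa9 (149.5, 140.0 and 175 CPM against 95.3, 106 and 112 CPM, −0.57 ± 0.08) and Trap1 (−0.62 ± 0.09) and the chaperonin subunit Cct6a (−0.47 ± 0.07) were called. Glycolysis genes were lower in 10 of 23 and higher in 3 (median −0.20). Against a fold of 1.5 the counts were 1 higher and 2 lower, and with all 15 libraries 1 and 6. Eno1, or enolase, fell from 346, 346 and 367 to 216, 209 and 213 CPM (−0.73 ± 0.06, adjusted p = 4.68e-12), Tpi1 by 1.07 ± 0.20 and the lactate carrier Slc16a1 by 0.98 ± 0.13. The other lactate carrier, Slc16a3, rose (1.64 ± 0.28), as did Hif1a (0.55 ± 0.07), the oxygen-regulated factor. Of 29 genes of cholesterol synthesis and uptake, 3 were higher and 3 lower, 10.3% each, near the 12.8% and 12.3% of all genes. Their median was −0.24, with 8 of the 29 above 0. Against a fold of 1.5 the counts were 1 higher and 0 lower, and with all 15 libraries 2 and 0. The higher ones included the exporters Abca1 (127, 107 and 112 CPM against 319.9, 298 and 361 CPM, 1.5 ± 0.10, adjusted p = 5.68e-12) and Abcg1 (0.45 ± 0.07). Without conventional replicate 40, 1 member was lower instead of 3. Hspa9, Trap1, Cct6a, Eno1, Hif1a and Abcg1 lost the call in the test against a fold of 1.5. Tpi1 and Slc16a3 lost it in the fit with all 15 libraries.

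Survival genes were split. Of 13 BCL-2 family members, 4 were higher and 3 lower. Against a fold of 1.5 the counts were 1 higher and 0 lower, and with all 15 libraries 1 and 1. The antiapoptotic Mcl1 rose (478, 451 and 485 CPM against 664, 651 and 657 CPM, 0.48 ± 0.06, adjusted p = 3e-08) while the antiapoptotic Bcl2l1, which encodes BCL-XL, fell (53.9, 58.2 and 62.4 CPM against 39.8, 33 and 34.1 CPM, −0.71 ± 0.09, adjusted p = 7.89e-08). Bcl2a1b and Bcl2a1d, near-identical copies of A1 among which reads are uncertain, were among the higher ones, and without conventional replicate 40, 2 members were higher. Bcl2l11, also higher, lost its call without conventional replicate 40 or 42 or FOXP3lo replicate 42 or 43. Of the lower members, Bmf lost its call without conventional replicate 40 or FOXP3lo replicate 42 or 43, and Bcl2 without conventional replicate 43. Death receptors and caspases were higher in 9 of 21 and lower in 1, with a median of 0.39. Against a fold of 1.5 the counts were 2 higher and 1 lower, and with all 15 libraries 6 and 0. Fas rose by 0.55 ± 0.10, Casp8, the caspase that death receptors activate, by 0.46 ± 0.07 and the caspase inhibitor Xiap by 0.50 ± 0.08. Ripk3, the kinase of necroptosis, was the member that fell (27.5, 24.8 and 26.1 CPM against 12.1, 13.7 and 13.1 CPM, −1.01 ± 0.16). Mcl1, Bcl2l1, Fas, Casp8 and Xiap lost the call in the test against a fold of 1.5. Ripk3 lost it in the fit with all 15 libraries.

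Id2, an inhibitor of E-protein transcription factors, fell from 66.2, 91.8 and 91.3 to 11, 11.6 and 14.9 CPM (−2.73 ± 0.16, adjusted p = 2.69e-17), with the gates far apart. Its relative Id3 was slightly higher (27.1, 35.9 and 34.5 CPM against 38.9, 44.8 and 40.6 CPM, 0.35 ± 0.13), a call lost without conventional replicate 40 (0.24) or FOXP3lo replicate 42 (0.29) or 43 (0.37). The E proteins Tcf3 and Tcf12 were not called (0.03 and 0.12). Of 12 genes of DNA methylation, 4 were higher, or 2 without conventional replicate 42, and 3 lower. Against a fold of 1.5 the counts were 0 higher and 1 lower, and with all 15 libraries 2 and 2. Of the enzymes that start the removal of methyl groups, Tet3 and Tet2 rose by 0.65 ± 0.06 and 0.42 ± 0.07 and Tet1 fell by 0.32 ± 0.09, a call lost without conventional replicate 40 (−0.23). In the same list, the maintenance enzyme Dnmt1 fell by 0.48 ± 0.08 beside its partner Uhrf1. Effector and innate-like T cell genes were higher in 7 and lower in 3 of 14 tested. These counts were 5 and 2 in the test against a fold of 1.5, and 5 and 2 in the fit with all 15 libraries. The sums of the NKT cell list and of the list of recirculating and activated T cells, given above, lay above those of conventional cells in all 3 FOXP3lo libraries. Slamf6 is on the first and Ccr6 on the second, and the part of such cells in these values was not tested. Ccr6, a chemokine receptor of mucosal and helper 17 cells, lay at 0.487, 0.674 and 0.407 CPM against 4.4, 4.55 and 8.31 CPM (3.48 ± 0.35, adjusted p = 1.74e-10) and Slamf6, a receptor of the SLAM family, at 62, 62.8 and 62 CPM against 119.8, 134 and 135 CPM (1.06 ± 0.09, adjusted p = 4.24e-13). Eomes, a factor of cytotoxic and memory cells, was higher at a low level (1.71, 2.1 and 0.698 CPM against 9.37, 8.31 and 8.58 CPM). Cd40lg, the helper signal to B cells and dendritic cells, fell from 96.9, 106 and 112 to 41, 42 and 39.7 CPM (−1.36 ± 0.09, adjusted p = 3.54e-15), and Il21, a helper cytokine, had 146 counts over the conventional and 0 over the FOXP3lo libraries. Runx3, the factor of CD8 lineage choice, fell from 63.5, 61.5 and 65.5 to 18.2, 17.1 and 16.8 CPM (−1.87 ± 0.11, adjusted p = 5.72e-17). Id3, Tet3, Tet2, Tet1 and Dnmt1 lost the call in the test against a fold of 1.5. Id3, Tet1 and Eomes lost it in the fit with all 15 libraries.

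The FOXP3lo gate was then tested against the other Treg-lineage gates, with the FOXP3lo libraries shared by all 3 comparisons. Against CD25+ progenitors 39.5% of all genes were called, 19.7% higher and 19.9% lower. Against mature Tregs 18.7% were called, 9.29% higher and 9.37% lower. Foxp3 was higher than in CD25+ progenitors by 6.52 ± 0.20 and lower than in mature Tregs by 1.05 ± 0.14. Il2rb did not differ by the test from CD25+ progenitors (0.13 ± 0.11) and was lower than in mature Tregs (−1.84 ± 0.11). S1pr1 was above both, by 3.02 ± 0.08 and 0.29 ± 0.07. Il7r passed neither test (−0.35 ± 0.24 and −0.03 ± 0.25), with means of 58.4 CPM for the CD25+ gate, 45.8 for the FOXP3lo gate and 46.8 for mature Tregs. Of the 57 interferon-stimulated genes, 55 were higher and 0 lower than in CD25+ progenitors, and 24 were higher and 2 lower than in mature Tregs. For late maturation genes the counts were 25 and 0 of 27 against CD25+ progenitors and 10 and 3 against mature Tregs. Oas2 was higher than in both (1.27 and 1.10), though lower than in conventional cells.

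The cell division lists gave different counts in these comparisons, and the difference between the counts was not tested. Mitotic genes were lower in 48 of 59 against CD25+ progenitors and in 4 against mature Tregs, with 4 higher. DNA replication genes were lower in 42 and 17 of 50, and ribosome biogenesis and MYC-linked genes in 35 and 30 of 42. The median mitotic member, as log2(CPM + 0.5) minus its mean over the 12 libraries, lay at 0.75, 0.69 and 0.85 in conventional libraries and at −0.57, −0.74 and −0.51 in FOXP3lo libraries. For ribosome biogenesis and MYC-linked genes the same medians were −0.05, −0.05 and 0.02 and −0.55, −0.44 and −0.55. In the plot of list medians the FOXP3lo libraries are the lowest of the 12 for DNA replication and for ribosome biogenesis and MYC-linked genes.

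**Figure D4:**
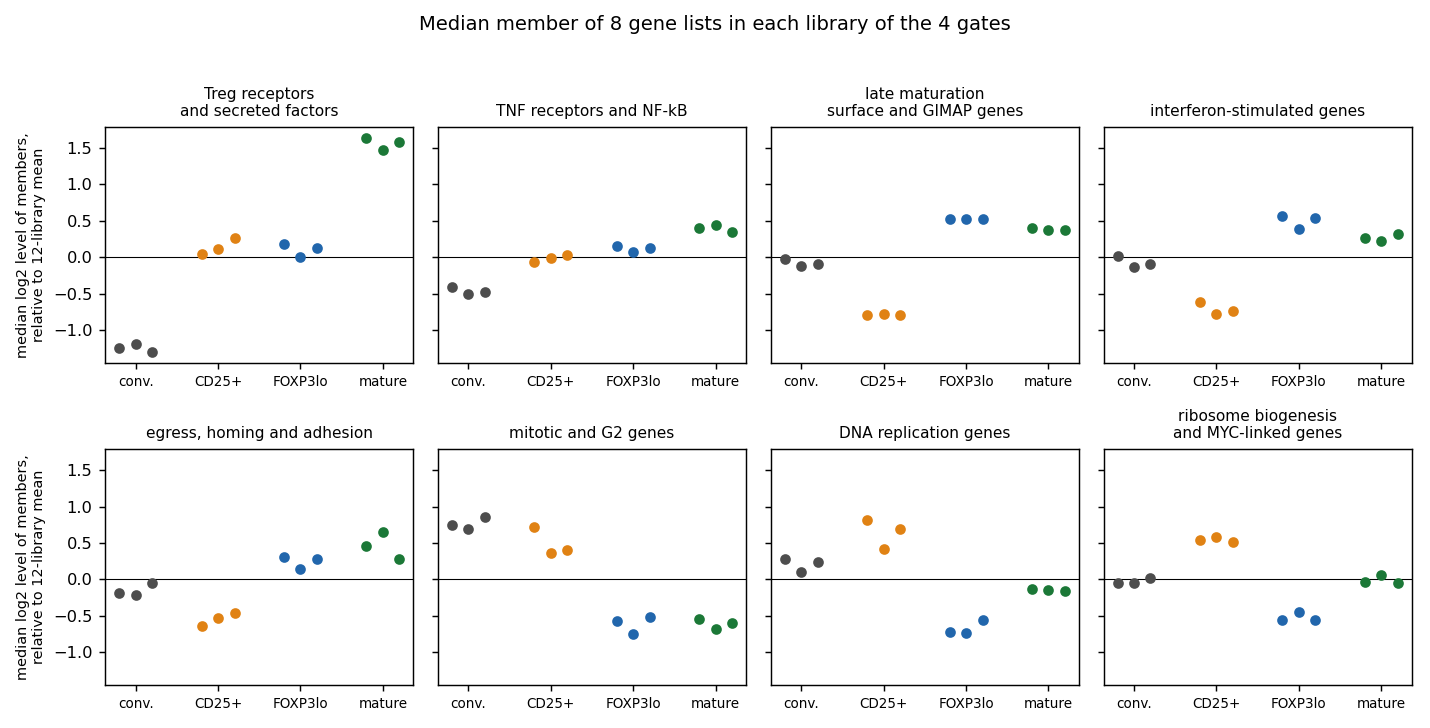
Median over the tested members of 8 gene lists (log2(CPM + 0.5) relative to each gene's mean over 12 libraries, vertical axis) in each library of the conventional, CD25+ progenitor, FOXP3lo progenitor and mature Treg gates. FOXP3lo libraries are the highest for late maturation and interferon-stimulated genes and the lowest for DNA replication and for ribosome biogenesis and MYC-linked genes.

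A last set of genes, chosen after their values were seen, differed from all 3 other gates in 1 direction, by more than 0.5 on the log2 scale and with a call each time. It held 65 genes that were higher in FOXP3lo progenitors and 218 that were lower. Among the higher, Il6st lay at 855 ± 16.6 CPM (mean ± SD, n = 3) against 360.1 ± 10.2 in conventional cells, 414 ± 34.7 in CD25+ progenitors and 465 ± 1.5 in mature Tregs. Itga4, the alpha-4 integrin chain, lay at 652 ± 17.1 CPM against 285 ± 23.4, 222 ± 18.1 and 344 ± 31.8 in the same order. Abca1 lay at 326 ± 31.9 CPM against 115 ± 10.2, 176 ± 31.3 and 209 ± 17.2. Slfn5, Ms4a4c and Ptpn22 were also in this set. Among the lower, Uhrf1 lay at 8.93 ± 1.24 CPM against 38.3 ± 9.36, 77.4 ± 9.41 and 24.2 ± 0.593. Irf4 lay at 21 ± 1.67 CPM against 59.7 ± 9.66, 111 ± 1.17 and 58.4 ± 7.21. Mcm2, Mcm5, Fbl, Tsr1, Cd8a and Runx3 belonged to it as well. In each gene named here the 3 FOXP3lo libraries stood outside the range of the other 9. Choice by a call and a margin against each gate favours such separation, so it is not a further result.

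**Figure D5:**
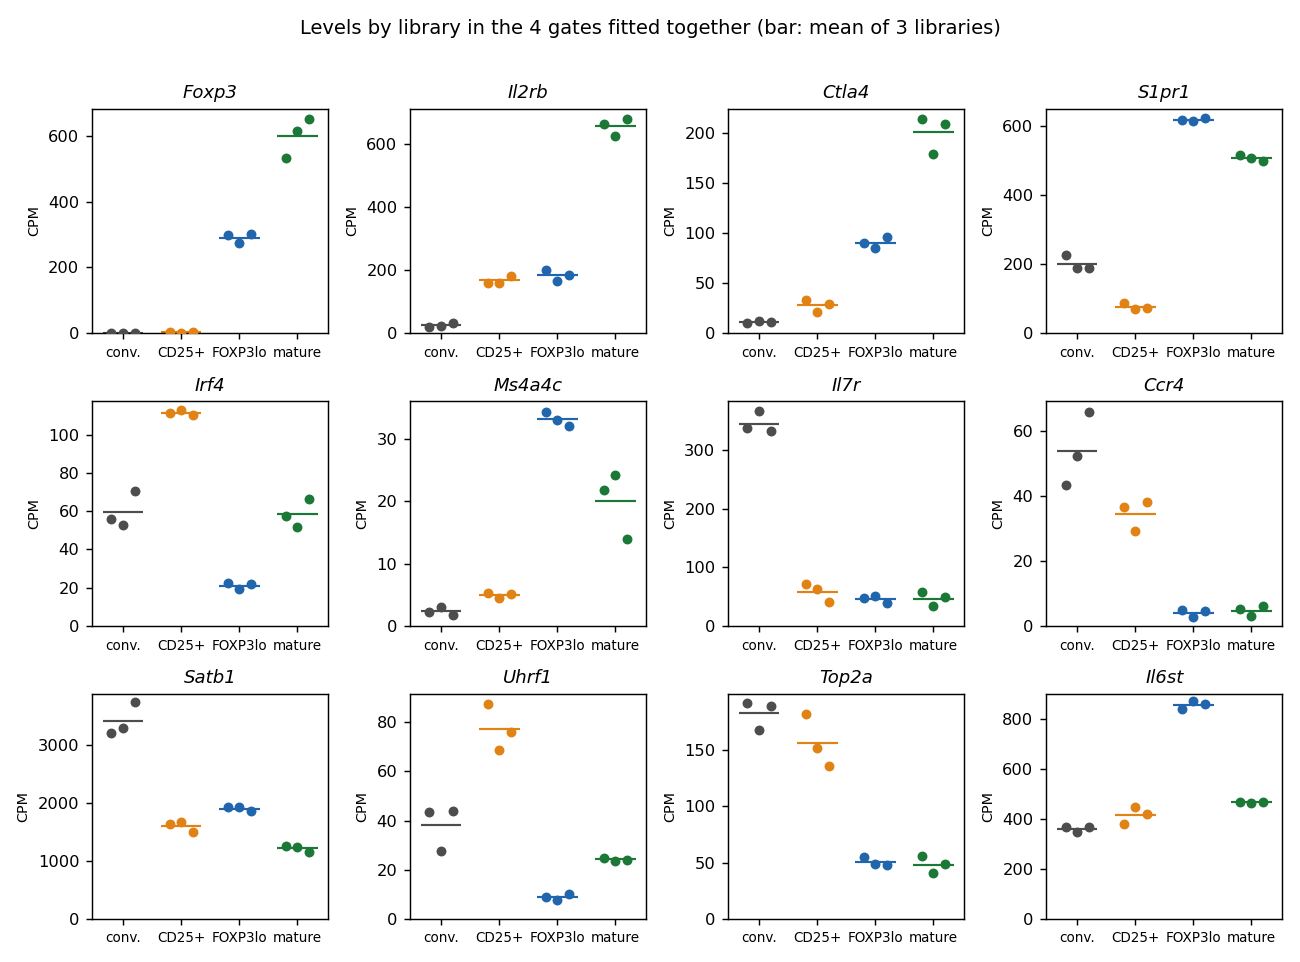
Levels (CPM, linear axes from 0) of 12 genes in each library of the conventional CD4SP, CD25+ progenitor, FOXP3lo progenitor and mature Treg gates, with the mean of 3 libraries as a bar. Il6st and S1pr1 are highest and Uhrf1 is lowest in the FOXP3lo libraries, while Il7r is low in all 3 Treg-lineage gates.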

How the data were processed

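RNA of sorted thymocytes was sequenced with a stranded total RNA kit for small inputs, per the labels' protocols. The authors deposited raw counts per Ensembl gene. Per the file headers these came from featureCounts 1.6.2 with Ensembl 97 on GRCm38, counting properly paired reads by strand (setting 2) at a mapping quality of at least 10. The submitters' processing notes name Trimmomatic 0.33, HISAT2 2.1.0 and featureCounts 1.4.6, so the counter's version differs between these sources. 

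Genes were named by position against the RefSeq table of GRCm38.p6, with 36870 of 55573 named, 13074 of the 15648 tested, and 821 of 834 list entries. Counts were tested with edgeR 4.0.16 in R 4.3.3 (TMM factors, filterByExpr, robust quasi-likelihood fit over 12 libraries in 4 gates, Benjamini-Hochberg adjustment at 0.05). Alternatives used limma 3.58.1 and DESeq2 1.42.0, other factors, filters, libraries and a fold of 1.5. The members and lists were chosen with earlier results of these data known. Named genes are the 12 highest and 12 lowest called genes without overlap and of at least 5 CPM, the gate genes, and per list the 3 called members of lowest adjusted p; all others were chosen after their values were seen. The numbers 40, 42 and 43 were taken to pair the libraries, since the labels give 15 libraries from 3 biological replicates. The main fit did not use this pairing, and a fit with the number as a block is given below. Deviations from the gate means correlated at −0.0104 to 0.0538 between libraries of 1 number (18 pairs) and −0.0648 to 0.0331 otherwise (36 pairs). Promoter sequences were not used here.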

Additional observations from a re-analysis of the deposited data

Results flagged for a closer look

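The 3 Bst2+ libraries enter none of the comparisons, and the RNA of 2 gate genes stood there above the conventional CD4SP libraries. In CPM without TMM factors, Foxp3 lay at 8.78, 26.8 and 40.8 in the Bst2+ libraries (replicates 40, 42 and 43) and at 0.8, 1.64 and 0.54 in conventional libraries. On the same scale Il2ra lay at 252, 294 and 166 in the Bst2+ libraries and at 10.7, 7.79 and 9.78 in conventional libraries. For both genes the lowest Bst2+ library was above the highest conventional one. The gate of these libraries asked for CD25, FOXP3 or both, and no test was run.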

How the results depend on the processing

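Of the processing choices tried, the test against a fold of 1.5 and the fit with all 15 libraries moved the counts of called genes by more than 1.5 times. Against conventional CD4SP cells, 462 genes were higher and 405 lower in the test against a fold of 1.5, and 784 and 616 in the fit with all 15 libraries. Against CD25+ progenitors the counts were 862 and 1196, and 1474 and 1595. Against mature Tregs they were 172 and 240, and 355 and 404. The first test asks for a larger change by construction, and the second adds the 3 Bst2+ libraries, whose biological coefficient of variation was 0.907. Leaving out 1 library at a time gave 1673 to 1878 genes higher and 1501 to 1733 lower against conventional cells, 2639 to 2870 and 2727 to 2891 against CD25+ progenitors, and 1138 to 1414 and 1156 to 1293 against mature Tregs. With the replicate number as a block, 2046 genes were higher and 1977 lower against conventional cells, 3110 and 3117 against CD25+ progenitors, and 1486 and 1492 against mature Tregs. This paired fit changed the call of 0 of the 117 genes named by rule against conventional cells, and of list genes it lost 1 and gained 3 of 698. In the alternatives run for the comparison with conventional cells, no called gene among those named by rule or listed changed direction. Genes with few counts, such as Dscam with 9 counts over the conventional libraries, have folds that rest on that depth.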
